A study of Mus musculus with 4 samples.

Results

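Potassium channel genes were examined in RNA sequencing of mouse cortex. Members were the genes whose symbol in the deposited count table begins with Kcn and whose transcripts are typed there as protein coding. The symbols are written in mixed letter case, and only 18 of the member genes were in mouse case, so the rule was applied in either case. It gave 76 genes, from 114 of the 37539 transcripts of the table, among 19591 genes and other features that were tested together. Cortex came from 12-month-old male mice on a C57BL/6 background, either APPswe/PS1ΔE9 double transgenic mice (APP) or wild type mice (WT), with 2 mice of each genotype and no treatment. In this model the transgenes are driven by the prion protein promoter, so they are not limited to the cells that carry most of these channels. Libraries are called APP.3, APP.4, WT.1 and WT.2 after the columns of the table. Library totals lay between 28525117 and 43881196 counts, of which the members took between 0.355% and 0.401%.

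Potassium channels let potassium ions leave or, in some types, enter the cell, and in this way they set the resting potential, end action potentials and limit repetitive firing. The letter after Kcn names the subfamily. Genes of the letters a, b, c, d, h and q encode voltage-gated pore subunits (Kv), and those of g, s and v encode silent subunits that only modify other Kv channels. The letter j marks inward rectifiers (Kir), k the leak channels (K2P), and m, n and t the pores opened by calcium or sodium. Kcnu1 is a relative that is not itself opened by these ions, and it was counted in their class. Auxiliary proteins are the beta subunits Kcnab and Kcnmb, the calcium-binding proteins Kcnip, the single-span Kcne proteins and Kcnrg. Many are best known from neurons, whereas Kcnj10, Kcnj16 and Kcnk1 are known from astrocytes and Kcnj2, Kcnk6, Kcnk13 and Kcna3 from microglia, among other cells.

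Levels in WT cortex were compared between genes per length, as CPM (the count scaled to the size of its library) per kilobase of transcript. This could be computed for 74 members. Kcna1, the axonal channel Kv1.1, had 68.0 ± 0.519 CPM per kilobase (SD, n = 2, as for the other levels) and its beta subunit Kcnab2 had 53.9 ± 0.893. Kcnma1, the pore of the large conductance calcium-activated channel (BK), followed at 38.6 ± 2.03. Kcnj3, which encodes a subunit of the G protein-gated channel GIRK, had 31.7 ± 0.450, and Kcnab1 had 31.6 ± 0.275, so this pair did not differ beyond its spread. The lowest were Kcnq1 and Kcnj15.

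**Figure D1:**
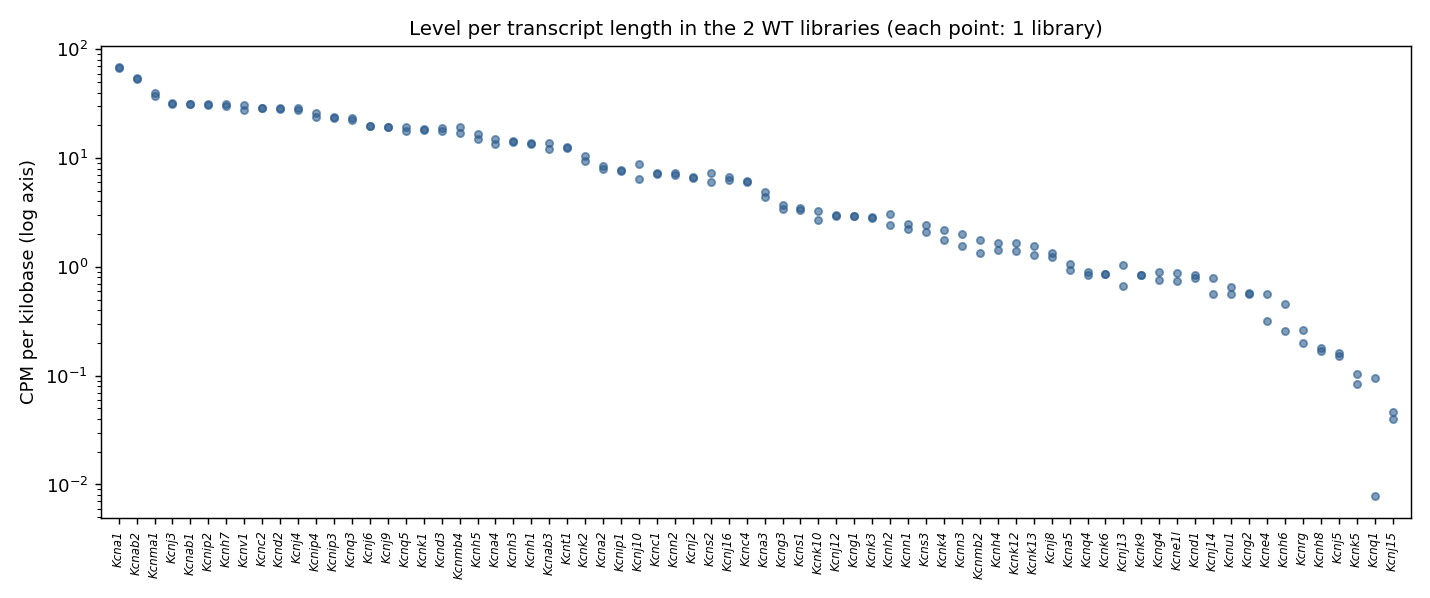
Level of 72 potassium channel genes in WT cortex, as CPM per kilobase of transcript on a log axis, with a point for each of the 2 WT libraries and the genes in order of their mean. The order runs from Kcna1 at 68.0 to Kcnj15 at 0.0431 CPM per kilobase, and the libraries lie close together except among the lowest genes.

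Comparing the genotypes, 1 of the 76 members was called at an adjusted p under 0.05 (quasi-likelihood test of edgeR, Benjamini-Hochberg over all 19591 features, and so for every adjusted p below unless another test is named). This was Kcnc2, which was lower in APP, and it is 1.32% of the members, beside 1.49% of all features called in either direction, 0.199% called lower and 1.29% called higher. The number of called members past the study's fold change of 1.5 was 0. An unadjusted p under 0.05 was reached by 17 members, or 22.4%, beside 11.9% of all features. Of these, 13 were lower and 4 higher in APP, where 4.46% of all features were lower and 7.48% higher. Because 2 mice against 2 allow no exact permutation p under 0.333 for any one gene, these p-values lean on the spread shared between all features. Divided by its degrees of freedom, the chi-square of the counts of 2 libraries of 1 genotype was 4.83 in WT and 26.8 in APP, so the APP libraries differed more. Leaving out a library moved the count most. Without APP.3 or APP.4, 16 or 9 members were called (9.3% or 6.47% of all features), and without WT.1 or WT.2 the count was 0 (0.789% or 0.792%) by the same test, with 9 and 5 members at an unadjusted p under 0.05. Scaling to library totals also gave 0 (1.39% of all features), with 14 at an unadjusted p under 0.05. DESeq2 called 1, and its share over all features was not counted. The exact and likelihood ratio tests of edgeR called 4 each (2.92% and 3.21% of all features).

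Small differences below 0 were common among the members. The log2 fold change of APP over WT was below 0 in 54 of 76 members (71.1%, beside 49.3% of all features), and its median was -0.09, beside 0.00 over all features. The genotypes did not overlap in 44 members (57.9%, beside 42.1% of all features). In 35 of them (46.1% of the members, beside 20.6%) both APP libraries lay below both WT libraries, and in 9 they lay above both, where 21.5% of all features did. The balance differed with expression. Of the 44 members with a mean of at least 10 CPM, 36 were below 0 and their median was -0.11, beside -0.02 over the 9308 features of that range. Of the 32 members under 10 CPM, 18 were below 0 and their median was -0.04, beside 0.06. Members are not replicates, and genes expressed in the same cells move together, so these shares are a description with no test. The summed level of the members was 3851.3 and 3738.3 CPM in APP.3 and APP.4, and 4137.4 and 4090.1 CPM in WT.1 and WT.2.

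**Figure D2:**
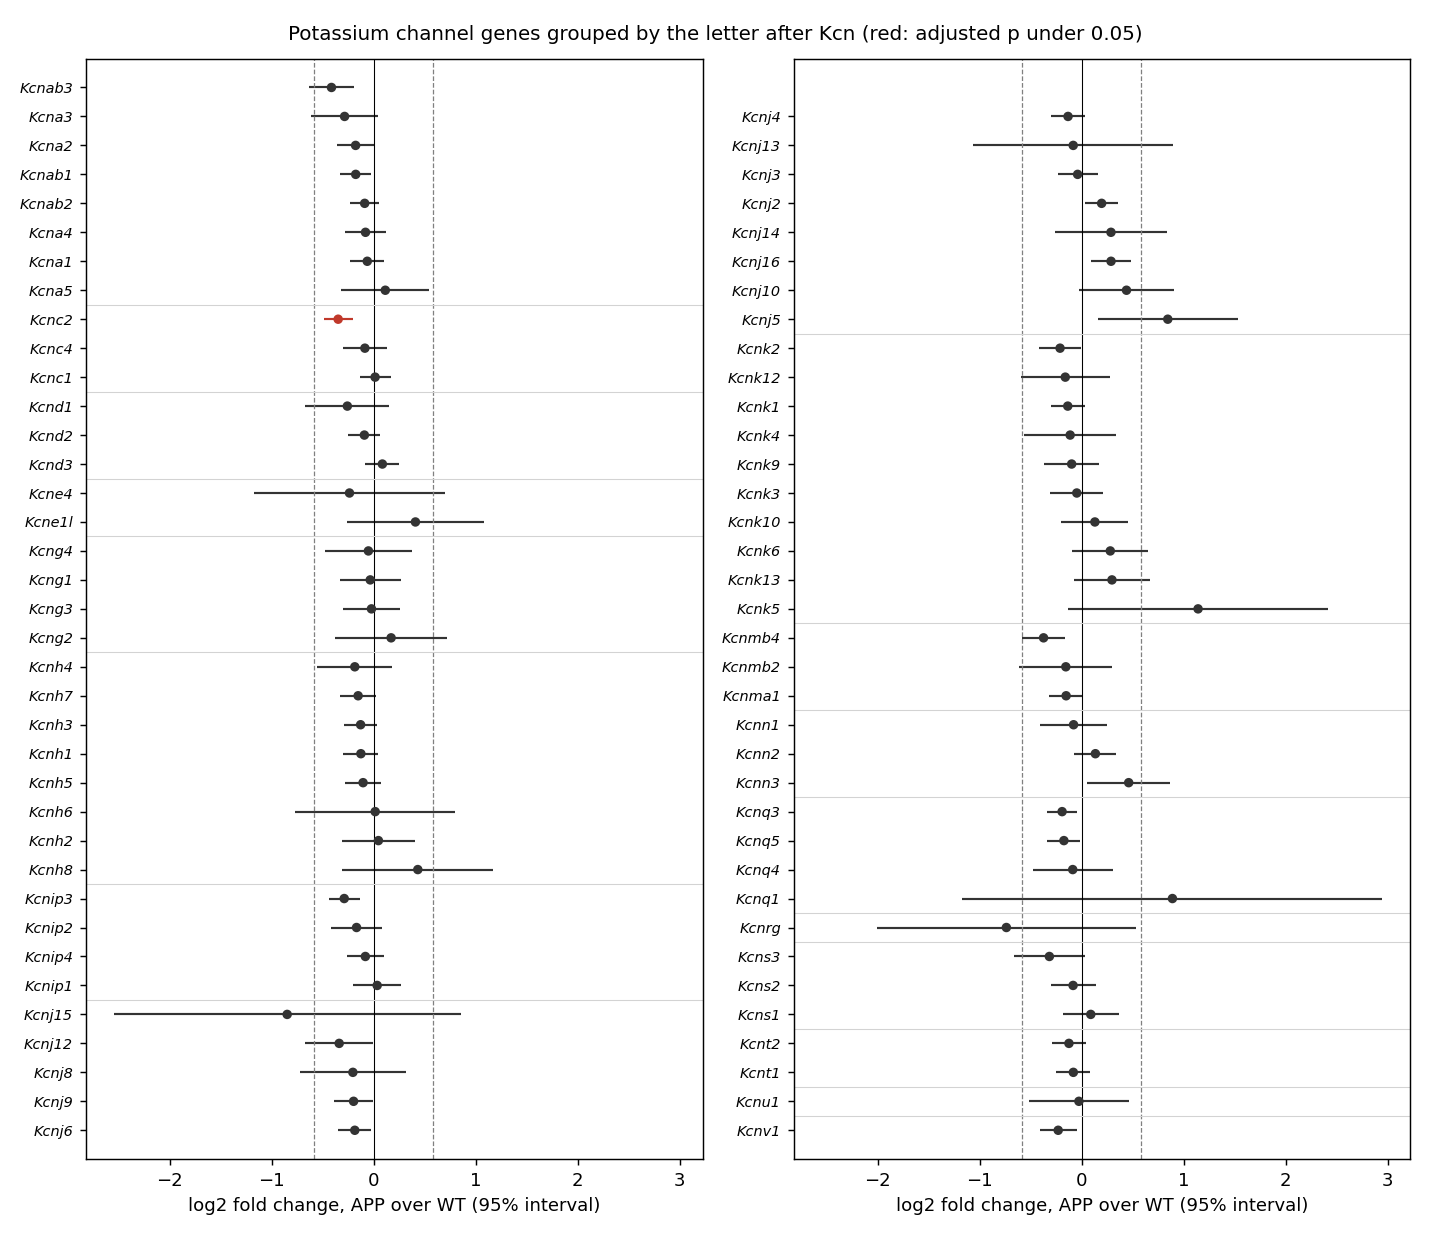
Log2 fold change of APP over WT (n = 2 each) for 73 potassium channel genes, with 95% confidence intervals, grouped by the letter after Kcn. Dashed lines mark a fold change of 1.5 in either direction and red marks an adjusted p under 0.05, which Kcnc2 alone reached.

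The intervals give the precision of these values. For 51 members the 95% interval of the log2 fold change lay wholly within 0.58 of 0, which is a fold change of 1.5, and for 25 it reached that size. Among the 44 members with at least 10 CPM, 41 intervals lay within it. A fold change past 1.5 at any p was seen in 5 members. Kcnk5, Kcnj5 and Kcnq1 were above it in APP, and Kcnrg and Kcnj15 below. All of them are low, with group means from 0.121 to 1.31 CPM, and none of them passed the test.

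Kcnc2 encodes Kv3.2, a voltage-gated channel that opens and closes quickly and lets interneurons fire at high rates. It lies on the plus strand of chromosome 10 of GRCm38, from 112271121 to 112467024, and was counted on a single transcript. It had 147 CPM in WT.1 and 145 CPM in WT.2, against 116 in APP.3 and 113 in APP.4. The genotypes did not overlap, and the gap between them was far wider than that within either. Kcnc2 fell by 0.35 on the log2 scale, which is a change of -21.4% (standard error 0.06, 95% interval from -0.49 to -0.20, adjusted p = 0.0307). Without WT.1 the log2 fold change was -0.34 (adjusted p = 0.355) and without WT.2 it was -0.36 (adjusted p = 0.299), so the call needed both WT libraries while the size stayed close. Scaled to library totals, its adjusted p was 0.0594. In bulk tissue, fewer cells of a type and less RNA per cell cannot be told apart.

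Kcnc1 and Kcnc4, of the same letter, stayed closer to 0. Kcnc1, which encodes the related fast channel Kv3.1, had 56.6 and 56.4 CPM in APP.3 and APP.4 and 56.6 and 55.3 CPM in WT.1 and WT.2. These values overlapped, and the 95% interval of the log2 fold change, from -0.14 to 0.17, did not reach the value of Kcnc2. Kcnc4 (Kv3.4) had a log2 fold change of -0.09. The 200 bases before the RefSeq start (GRCm38.p6) of Kcnc2 and Kcnc1 are shown because these members of the same letter differ in composition there. They lie at chr10:112270921-112271120 and chr7:46396268-46396467, both on the plus strand, and GC boxes are in capitals.
Kcnc2: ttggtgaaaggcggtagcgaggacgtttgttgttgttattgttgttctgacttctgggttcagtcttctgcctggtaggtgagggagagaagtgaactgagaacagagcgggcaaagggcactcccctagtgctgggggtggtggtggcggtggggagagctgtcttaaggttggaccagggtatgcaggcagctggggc
Kcnc1: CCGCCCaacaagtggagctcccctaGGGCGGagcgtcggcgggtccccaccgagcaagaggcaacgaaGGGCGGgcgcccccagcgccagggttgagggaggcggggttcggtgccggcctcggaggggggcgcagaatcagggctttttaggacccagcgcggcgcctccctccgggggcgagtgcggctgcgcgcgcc

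Over 300 bases, 250 before the start and 50 after, the Kcnc2 promoter had 52.7% GC and 5 CpG, and that of Kcnc1 74.7% and 41. The median over the 55 members with a promoter in the table was 63.7% GC and 17 CpG, beside 52.7% and 7 over all 32851 promoters. Each member gave 1 promoter, the nearest to the start of its most counted transcript, whereas a gene can have several among all promoters. For Kcnip4, Kcnma1 and Kcnh2 that promoter lay 239248, 200901 and 22013 bases from the transcript start. The GC box GGGCGG, searched on both strands, was found in 32 of the 55 (58.2%, beside 35.7% of all promoters). The TATA box TATAAA was found in 3 (5.45% beside 13.6%), CCAAT in 17 (30.9% beside 37.4%) and the cAMP response element TGACGTCA in 0 (beside 1.79%). A match is a run of letters and not a shown binding site, and of these motifs the Kcnc2 window held CCAAT alone, outside the bases printed above. The 21 other members had no entry.

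Among the remaining voltage-gated pore subunits no call was made, and the values leaned to lower levels in APP. Of the 26 Kv pore genes, 19 were below 0, with a median of -0.10, and 14 of the 15 whose genotypes did not overlap were lower (53.8% of the 26, beside 20.6% of all features). Kcnq3, a subunit of the M current that restrains firing, had 242 and 230 CPM in APP against 275 and 264 CPM in WT, a change of -12.4% (adjusted p = 0.268). Every APP library lay below every WT library, but the gene did not pass the test. Kcnq5, another M current subunit, was at -0.17 on the log2 scale. Kcna2 (Kv1.2) was at -0.18, while Kcna1, higher per length, was at -0.06 with overlapping libraries. Kcnh7, a channel of the ERG type, was at -0.15. In the Kcnd letter, whose channels carry the A-type current of dendrites, Kcnd2 was at -0.09 and Kcnd3 at 0.09.

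The silent Kv subunits were nearer to 0, with a median of -0.04 over 8 genes. Kcnv1, which encodes Kv8.1 and modifies Kv2 channels, had the highest level per length of them. It had 117 and 104 CPM in APP against 123 and 136 CPM in WT, a log2 fold change of -0.23 (adjusted p = 0.269). Its genotypes did not overlap, although APP.3 lay close to WT.1. Kcns3 (Kv9.3) was at -0.32 at a low level of 5.36 CPM in APP and 6.66 CPM in WT. Kcns2, the highest of its letter, was at -0.08 and Kcng3 at -0.02.

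Auxiliary subunits held 3 of the 4 lowest p-values among the members. Of the 12 auxiliary genes, 10 were below 0, with a median of -0.17, and each of the 6 with non-overlapping genotypes was lower in APP. These are 50% of the 12, beside 42.1% of all features not overlapping in either direction and 20.6% lower. Kcnip3 (chromosome 2, 127456498 to 127522094, minus strand) encodes KChIP3, a calcium-binding protein that binds Kv4 channels and is also known as calsenilin, a presenilin-binding protein. It had 64.6 CPM in WT.1 and 63.2 CPM in WT.2, against 52.6 in APP.3 and 52.1 in APP.4. Within each genotype the libraries were nearly level, and the change was -18.1% (log2 fold change -0.29, adjusted p = 0.0862). Of its counts 95.9% were on 1 transcript, and its other 2 transcripts were also below 0. Kcnip2 (KChIP2), the Kcnip gene of highest level per length, was at -0.17 with overlapping libraries.

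Kcnab3 (chromosome 11, 69326258 to 69333042, plus strand) encodes the beta subunit Kv beta 3. It had 35.1 CPM in WT.1 and 30.8 CPM in WT.2, against 23.2 in APP.3 and 26.3 in APP.4, a change of -24.9% (adjusted p = 0.0862). Kcnab1 was at -0.18 and Kcnab2 at -0.09. All 3 Kcnab genes had both APP libraries below both WT libraries, as did 20.6% of all features. Kcnmb4 (chromosome 10, 116417861 to 116473878, minus strand) encodes the neuronal beta subunit of the BK channel. It had 23.5 CPM in WT.1 and 26.3 CPM in WT.2, against 20.1 in APP.3 and 18.2 in APP.4, a change of -22.8% (adjusted p = 0.118). The pore gene of the same channel, Kcnma1, was at -0.15. Kcnab3, Kcnip3 and Kcnmb4 were called, each with Kcnc2, by edgeR's exact test and its likelihood ratio test, which called 2.92% and 3.21% of all features. Their adjusted p-values by the exact test were 0.0152, 0.0423 and 0.0403.

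**Figure D3:**
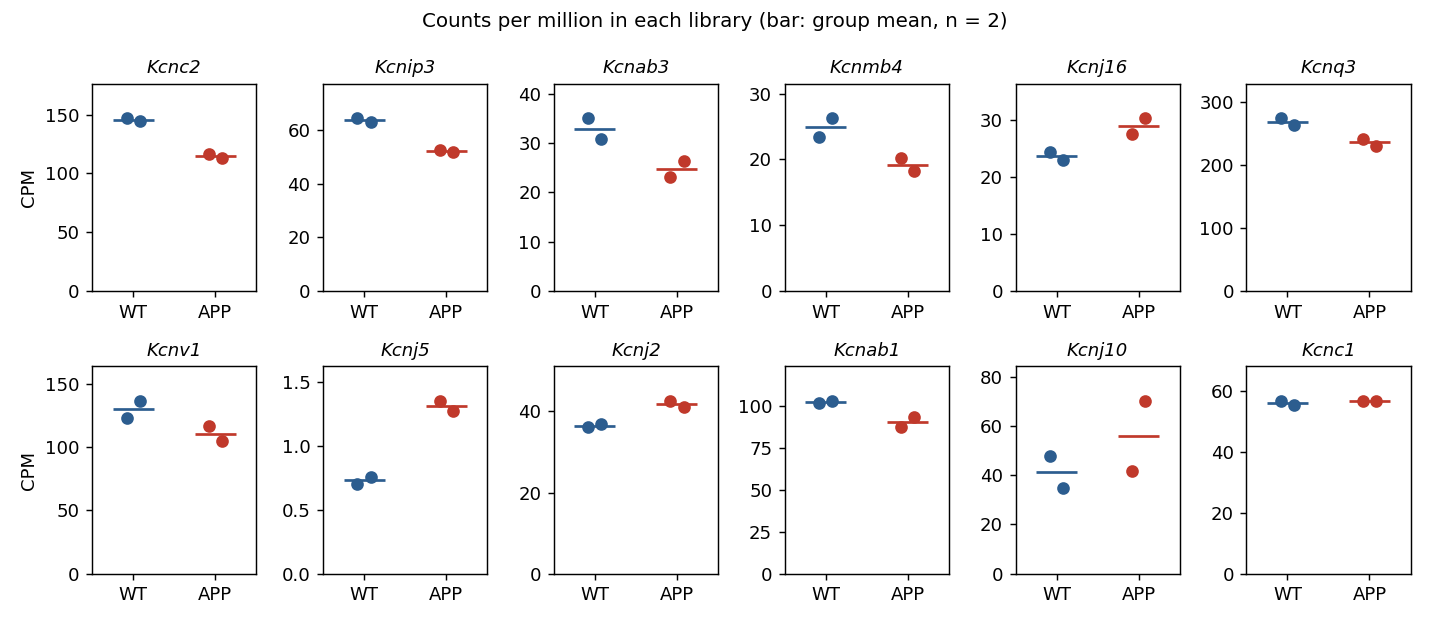
CPM in each library for 10 of the members of lowest p with non-overlapping genotypes and a mean of at least 1 CPM, and for Kcnj10 and Kcnc1. Points are libraries (n = 2 per genotype), bars are means and each axis starts at 0. Kcnc2 has 145 and 147 CPM in WT and 113 and 116 CPM in APP, while Kcnc1 is level and the APP libraries of Kcnj10 lie far apart.

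Inward rectifiers lay on both sides of 0. Of 13 Kcnj genes 8 were below 0 and 5 above, and 6 had an unadjusted p under 0.05 (46.2%, beside 11.9% of all features). GIRK subunits, which slow neurons through G protein-coupled receptors, were below 0 where they are abundant. Kcnj6 (GIRK2) was at -0.18, Kcnj9 (GIRK3) at -0.20 and Kcnj3 (GIRK1) at -0.04. Kcnj5 (GIRK4) was at 0.85, but with 38 and 38 counts in APP and 30 and 26 in WT it is a minor member (adjusted p = 0.286). Kcnj12 (Kir2.2) was at -0.34, also at a low level of 5.77 CPM in APP and 7.28 CPM in WT, and Kcnj4 (Kir2.3) at -0.13.

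Kcnj16 encodes Kir5.1, which pairs with Kir4.1 in astrocytes that clear potassium after firing. It was the member with the lowest p among those higher in APP, with 24.4 CPM in WT.1 and 23.1 CPM in WT.2, against 27.6 in APP.3 and 30.4 in APP.4. Both APP libraries lay above both WT libraries, with a log2 fold change of 0.29 (95% interval from 0.10 to 0.48, adjusted p = 0.186). Its neighbour on the same strand of chromosome 11 is Kcnj2, which encodes the strong rectifier Kir2.1. The genes span 110968033 to 111027968 and 111066164 to 111076821. Kcnj2 had 42.6 and 41.0 CPM in APP against 36.2 and 36.8 CPM in WT, also without overlap (log2 fold change 0.20, adjusted p = 0.301). On chromosome 1 the neighbours Kcnj9 (172320501 to 172329318, minus strand) and Kcnj10 (172341210 to 172374085, plus strand) had differences of opposite sign.

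Kcnj10 encodes Kir4.1, the main potassium channel of astrocytes. It had 47.8 CPM in WT.1 and 34.7 CPM in WT.2, against 41.8 in APP.3 and 70.2 in APP.4. The genotypes overlapped, and the difference between the APP libraries was larger than that between the genotype means (log2 fold change 0.44, adjusted p = 0.455). Without APP.3 the log2 fold change was 0.76 and without APP.4 it was 0.01, so this value rests on 1 library. A gap of at least 1.5-fold between the APP libraries was seen in 6 members, namely Kcnj10, Kcnk5, Kcne1l, Kcnj8, Kcne4 and Kcnj13. APP.4 was the higher library for Kcnj10 and Kcne1l and APP.3 for the other 4. Over all members the median gap between libraries was 0.16 on the log2 scale in APP and 0.09 in WT, close to the 0.17 and 0.12 of all features.

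In the leak channels, 6 of 10 genes were below 0 and 4 above. Kcnk2, which encodes the mechanosensitive and lipid-sensitive channel TREK-1, had 31.0 CPM in WT.1 and 34.3 CPM in WT.2, against 26.3 in APP.3 and 30.0 in APP.4. The groups did not overlap by a small margin (log2 fold change -0.21, adjusted p = 0.408). Kcnk1 (TWIK-1) was at -0.14. Kcnk13 (THIK-1), a main resting conductance of microglia, had 5.63 and 5.20 CPM in APP against 4.42 ± 0.594 CPM in WT (SD, n = 2), and Kcnk6 (TWIK-2) had 4.42 and 4.16 against 3.50 and 3.55. Both had higher values in each APP library than in each WT library, with adjusted p-values of 0.543 and 0.570. Kcnk5 was counted 29 times in APP.3, 11 in APP.4 and 12 in WT.1 and WT.2, so its log2 fold change of 1.14 comes from APP.3.

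The class of channels opened by calcium or sodium, with Kcnu1 counted in it, had 5 of 7 genes below 0. The Kcnn letter, which holds the small conductance SK channels of the afterhyperpolarization, was the exception among letters of at least 3 genes in having a median above 0, at 0.14. Kcnn3 (SK3) had 5.81 CPM in WT.1 and 4.51 CPM in WT.2, against 6.28 in APP.3 and 7.98 in APP.4, which do not overlap (log2 fold change 0.46, adjusted p = 0.337). Kcnn2 (SK2) was at 0.14 and Kcnn1 (SK1) at -0.08. Kcnt1 and Kcnt2, the sodium-activated channels Slack and Slick, were at -0.08 and -0.12. Of the Kcnt2 counts 71.1% were on a transcript not matched to the annotation, so its length is unknown. Kcnu1, a channel best known from sperm, was at -0.03 with a mean of 2.15 CPM in WT. Members not named here lay between -0.26 for Kcnd1 and 0.43 for Kcnh8, without a call.

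Kcnc4 and Kcnk2 are also nodes of the study's miRNA target network, whose seed lncRNAs were chosen from these same libraries. Its mRNA nodes were taken from predicted or experimentally reported miRNA targets. The values of Kcnc4 and Kcnk2 here are no independent evidence for that network. Mature miRNAs are shown from RefSeq with the seed, bases 2 to 8, in capitals. Sites are shown from the GENCODE M21 transcripts (GRCm38) with the bases that pair with the seed in capitals, to show where the seeds would pair. Of the miRNAs, miR-326-3p and miR-330-5p have the same seed.
miR-326-3p: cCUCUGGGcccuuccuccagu
miR-330-5p: uCUCUGGGccugugucuuaggc
miR-132-3p: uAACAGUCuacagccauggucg
Kcnc4, miR-326-3p site: gactctcagggCCCAGAGccatc
Kcnk2, miR-132-3p first site: aggctctttgtGACTGTTgccgg
Kcnk2, miR-132-3p second site: ttttgtgcccaGACTGTTtcccc

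The Kcnc4 site is in the 3′ UTR at chr3:107439189-107439195 on the minus strand, the only match in 1118 bases. The Kcnk2 sites are in the 3′ UTR at chr1:189209724-189209730 and chr1:189209538-189209544 on the minus strand, the 2 matches in 1860 bases. A match of 7 bases is a description and no measure of binding. Kcnc4 had 22.1 CPM in WT.1 and 22.6 CPM in WT.2, against 22.8 in APP.3 and 19.3 in APP.4, with overlapping genotypes and a 95% interval of the log2 fold change from -0.30 to 0.13. Neither gene differed between genotypes beyond the test's threshold.

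Grouped by the cell type they are best known from, members lay on both sides of 0 among neuronal, astrocyte and microglial genes alike, and the groups were not tested against each other. Of the 68 genes assigned to no glial or vascular cell, 51 were below 0 and 17 above, with a median log2 fold change of -0.09. The 3 assigned to astrocytes had a median of 0.29 and the 4 assigned to microglia one of 0.24. Of the astrocyte genes Kcnk1 (TWIK-1) was at -0.14, with both APP libraries below both WT libraries, and Kcnj10 and Kcnj16 were above 0. Of the microglial genes Kcna3 (Kv1.3) had 7.95 and 6.64 CPM in APP against 9.38 and 8.36 CPM in WT, lower in each APP library, while Kcnj2, Kcnk13 and Kcnk6 were higher in each. These assignments come from general knowledge and not from these libraries, and most of the genes are also expressed by other cells.

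Markers of these cell types moved in the same libraries. Of 17 microglial markers 14 were called higher in APP, with a median log2 fold change of 1.03 and summed levels of 612.1 and 760.0 CPM in APP against 345.4 and 347.8 CPM in WT. Of 12 astrocyte markers Gfap and Aqp4 were called higher, and the sum was 5144.0 and 5624.6 CPM in APP against 4619.4 and 4233.2 CPM in WT. Of 12 oligodendrocyte markers 3 were called higher (sum 1727.6 and 1514.3 against 1105.4 and 1245.2 CPM). Excitatory neuron markers were below 0 in 9 of 10 genes with 0 called, and 3 had an unadjusted p under 0.05, beside 11.9% of all features (sum 1532.3 and 1562.8 against 1739.4 and 1678.4 CPM). Their median of -0.15 was lower than that of those 68 channel genes.

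Interneuron markers are set beside Kcnc2, which is known from these cells. Of 12, 9 were below 0 and Pvalb, a marker of fast-spiking cells, was called lower. Pvalb had 31.6 CPM in WT.1 and 26.3 CPM in WT.2, against 21.1 in APP.3 and 19 in APP.4, so its order of libraries by genotype was that of Kcnc2 (log2 fold change -0.53, adjusted p = 0.044). Vip at -0.32, Npy at -0.20 and Erbb4 at -0.18 were also lower at an unadjusted p under 0.05, as were 4.46% of all features. Sst, a marker of another interneuron class, was at -0.14 and Gad1, which all of these cells express, at -0.12. The 3 markers above 0 were Gad2, as widely expressed as Gad1, at 0.19, Lhx6 at 0.19 and Dlx6 at 0.30. Of the interneuron markers only Pvalb was called. The summed list was 852.6 and 971.1 CPM in APP against 1005.4 and 953.3 CPM in WT, which overlap. Striatal markers differed between the APP libraries, with 359.5 CPM in APP.3 and 744.8 CPM in APP.4 against 489.7 and 546.3 CPM in WT. All 8 hypothalamic markers measured were above 0 and 4 were called higher in APP (Avp, Oxt, Sim1 and Trh), at a low summed level of 14.2 and 18.9 CPM in APP against 8.5 and 8.4 CPM in WT. Of 11 thalamic markers 8 were above 0 and Calb2 was called higher. Tcf7l2, Slc17a6, Plekhg1, Zic1, Ntng1 and Prkcd were also higher at an unadjusted p under 0.05, as were 7.48% of all features. The 3 markers below 0, Rora, Lef1 and Rgs16, did not reach that level. The summed thalamic list overlapped (303.2 and 278.6 against 284.1 and 272.9 CPM), and most of it was Rora (195 and 173 against 203 and 193 CPM). Of 10 endothelial markers 8 were below 0 and 0 were called by the same test, with 1 (Slc2a1) at an unadjusted p under 0.05. The part of any of these in the channel values was not tested.

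**Figure D4:**
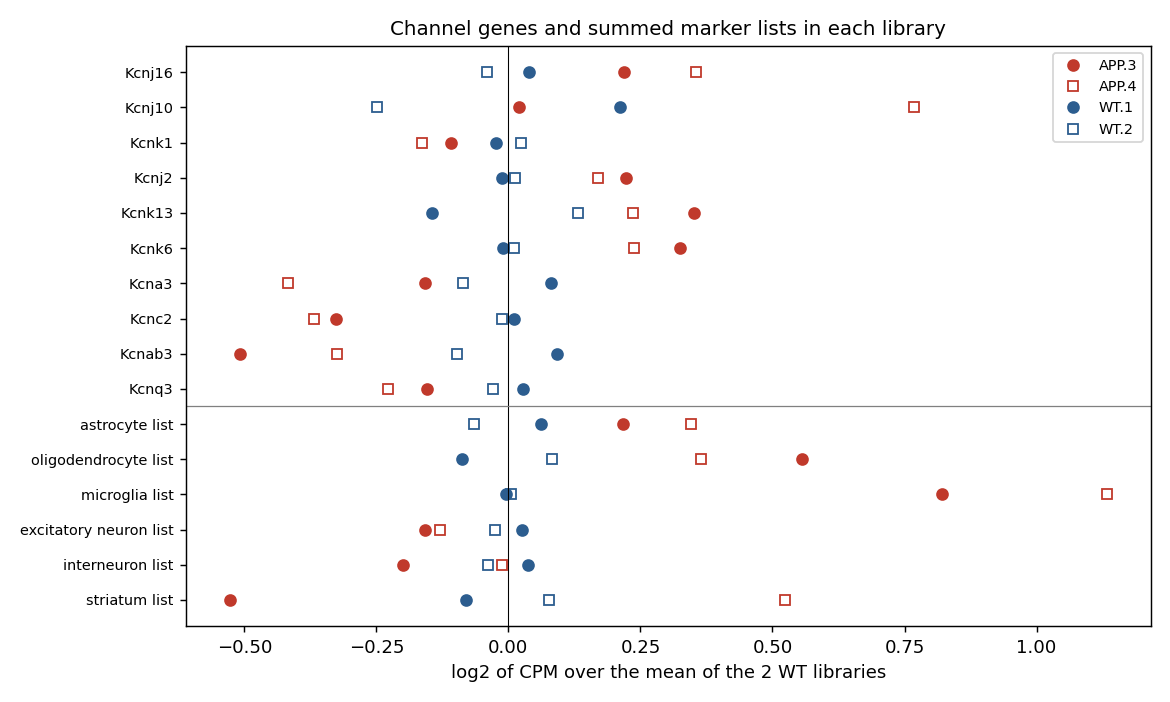
Log2 of the CPM in each library over the mean of the 2 WT libraries, for 10 potassium channel genes and for the summed markers of 6 cell types or regions. Red marks APP and blue WT, with filled circles for APP.3 and WT.1 and open squares for APP.4 and WT.2. Kcnj16 and the astrocyte list lie above 0 in both APP libraries and Kcnc2 and the excitatory neuron list below, while the striatal list splits the APP libraries.

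Genes that work with potassium channels without being channels of this name were read from a separate list of 30, measured as 27 features because calmodulin genes share a symbol and 1 gene was not found. The number called was 0, and 22 of the 27 were below 0, with a median of -0.08. At an unadjusted p under 0.05 there were 3 of the 27, all lower, where 4.46% of all features were lower and 7.48% higher. Adam23 and Lgi1, a receptor and its secreted ligand that join the Kv1 complex at the synapse, were both at -0.18 (adjusted p = 0.278 and 0.293). Amigo1, the auxiliary subunit of Kv2 channels, was also at -0.18 (adjusted p = 0.315). Dpp6 and Dpp10, auxiliary subunits of Kv4 channels, were at -0.08 and -0.04, and the Kv1 scaffolds Dlg1, Dlg2 and Dlg4 were between -0.03 and 0.00.

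Single transcripts gave the same count. Of the 114 member transcripts tested among all 37539, 1 was called, the Kcnc2 transcript (log2 fold change -0.35), where 1.06% of all transcripts were called. An unadjusted p under 0.05 was reached by 20 (17.5%, beside 9.18% of all transcripts). Most members, 57 of 76, were counted on 1 transcript, and in 12 of the other 19 the leading transcript held over 90% of the counts. In 7 genes the transcripts differed in sign. How reads shared between transcripts were assigned is not stated, so the split within a gene is uncertain.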

How the data were processed

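Strand-specific paired reads were obtained from ribosome-depleted cortical RNA of 2 APP and 2 WT mice. The values are counts of reads per transcript, which the authors made with FANSe2 against Ensembl mouse RNAs after removing ribosomal reads, and deposited unscaled. Transcripts under 10 reads had been left out. Submitters' processing notes name CASAVA 1.8, edgeR and the build hg19, which is human and was not used here. Columns of the authors' own comparison (log2 fold change, mean CPM, p-value and FDR) were set aside, as were 4 other columns holding per-library values. The number in a WT column gave its mouse, while an APP column gave its genotype only.

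Counts were summed per gene symbol over protein-coding transcripts, or by GENCODE M21 identifier (GRCm38) for the 8274 transcripts without a symbol. Features with at least 10 counts over the libraries were fitted in R 4.3.3 with edgeR 4.0.16 (TMM normalization, quasi-likelihood test, no covariate) and Benjamini-Hochberg adjustment. The common dispersion was 0.00775. CPM values use TMM library sizes, errors are SDs over 2 libraries, and intervals are 95% intervals of the fit. The test was run on simulated counts of all 19591 features for APP against WT with 200 changed. It called 51% of the 1.5-fold changes, 84% of the 2-fold changes and 9 unchanged features. The changed features had a mean of at least 1 CPM, and the same dispersion trend was used for both genotypes. The real APP libraries differed more than the WT libraries, so these rates may not hold for the data. DESeq2 1.42.0, other edgeR tests, other scalings, filters and sums, and leaving out each library were tried as alternatives.

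The members, roles, marker lists and partner list were chosen with earlier results of these data known. Genes named are those called, then about 25 by lowest p with non-overlapping genotypes and a mean of at least 1 CPM, the highest member of a subfamily, network targets, and members known from glia. Others are named as relatives in the same complex or letter, after their values were seen. A few members enter the counts and medians but are not reported by name here. Motifs, promoters and miRNAs come from RefSeq tables. Reads carry no molecular identifiers, so statements on depth cover counting error only.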

Additional observations from a re-analysis of the deposited data

How the results depend on the processing

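Over 9 alternatives with all libraries, 0 members changed the sign of their difference, and the median log2 fold change of the members ranged from -0.092 to -0.086. With all libraries, 1 member was called except by edgeR's exact test (4), its likelihood ratio test (4) and library totals without TMM (0, with 14 at an unadjusted p under 0.05). Leaving out 1 library at a time gave 0 to 16 called members and medians from -0.11 to -0.074, with 47 to 53 members below 0. In these fits the lone library of a genotype is assumed to vary like the others. Single transcripts of the members gave 2 calls with the exact test, which called 1.47% of all transcripts. The cause of these shifts was not tested. Kcnc2 lost its call with library totals and without either WT library. Sums by GENCODE identifier, an alternative chosen with the data in view, left the count at 1. No feature was under 10 counts, so leaving out the filter changed nothing. No paired analysis was possible because the APP columns carry the numbers 3 and 4 and the WT columns 1 and 2.

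An interval that reaches a fold change of 1.5 was found in 22 of the 32 members under 10 CPM and in 3 of the 44 at or above it. A strict sum over symbols leaves out reads on transcripts without one. How reads on exons shared by transcripts were assigned is not given in the sources used here.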

Other observations

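Several potassium channel genes lay outside the membership rule. Kcnb2, Kcnf1 and Kcnj11 were present only on transcripts without a symbol, and Kcna6 only on transcripts typed as other than protein coding. Summed by GENCODE identifier, none of these 4 genes was called by edgeR's quasi-likelihood test, and 0 of them had an unadjusted p under 0.05. Kcnb2 (Kv2.2), a delayed rectifier, had a log2 fold change of -0.11 (adjusted p = 0.653). Kcnf1, a silent Kv subunit, had one of -0.16 (adjusted p = 0.586). Kcnj11, the pore of the ATP-sensitive channel, had one of -0.19 (adjusted p = 0.738). Kcna6 (Kv1.6) was at -0.09 (adjusted p = 0.722), and its annotated 3′ UTR of 3499 bases held 3 matches to the miR-132-3p seed. The antisense RNA Kcnq1ot1, which arises within Kcnq1, was at -0.02, with 39050 and 29897 counts in WT.1 and WT.2, whereas Kcnq1 itself had 1 and 10. Kcnn3 had a retained-intron transcript with 602 and 382 counts in WT.1 and WT.2 and 418 and 573 in APP.3 and APP.4, more than its protein-coding transcripts in each library.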
